A study of Mus musculus with 157 samples.

Results

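The proteasome genes described here were the 46 protein-coding genes whose symbols start with Psma, Psmb, Psmc, Psmd, Psme, Psmf or Psmg and go on with a digit, out of 19600 genes (16519 of them protein coding) counted in the study. Psmb8, Psmb9 and Psmb10, the catalytic subunits of the immunoproteasome, were kept apart from them. By role, the symbols gave 8 alpha ring and 8 beta ring genes of the 20S core, 6 ATPases and 11 non-ATPase subunits of the 19S cap, 3 assembly chaperones of the cap, 4 assembly chaperones of the core, 4 activators and 1 inhibitor, which makes 45. The remaining gene, Psmc3ip, encodes a cofactor of meiotic recombination and is no proteasome subunit, but its symbol meets the rule and its values are given with the others. The mRNAs came from primary splenic B cells of young adult C57BL/6Babr mice, and every culture received LPS at 10 µg/ml, a bacterial lipopolysaccharide that drives resting B cells into growth and division. The LPS group had 48 h of LPS alone, the LPS+ET group also had 20 µM etoposide, a topoisomerase poison that breaks DNA, for 4 h, and the LPS+ET+KU group had 47 h of LPS and 1 h of 10 µM KU55933, an inhibitor of the ATM kinase, ahead of the same etoposide treatment. Cytoplasmic extracts, made after cycloheximide had fixed ribosomes on the mRNAs, were run through sucrose gradients, and 3′ tag libraries were made from fractions 4 to 7 (monosomes), 8 to 10 (light polysomes) and 11 to 16 (heavy polysomes). There were 4 gradients for each of the 3 treatments, and they are named here by the tags LUL15, LUL16, LUL17 and LUL18 of their library pools. The mice behind each pool are not stated, so p-values measure the spread between gradients.

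The proteasome is the protease that degrades ubiquitin-tagged proteins in the cytoplasm and nucleus. Its barrel, the 20S core, stacks outer rings of alpha subunits, which form the gate, on inner rings of beta subunits, of which Psmb5, Psmb6 and Psmb7 carry the constitutive active sites. The 19S cap recognises ubiquitin, removes it and threads the substrate into the core with a ring of ATPases, while the activators of the Psme family open the gate in other ways. Lymphocytes also make an immunoproteasome, in which Psmb8, Psmb9 and Psmb10 replace the constitutive catalytic subunits and cut peptides for antigen presentation. Because subunits are needed in fixed proportions, the genes are often described as a coordinated set, and most of their mRNAs are of short to moderate coding length.

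Each gene was counted at mapped poly(A) sites, so a count stands for the 3′ end of an mRNA and does not scale with transcript length. Against the GENCODE annotation of GRCm38, the site that held most counts lay in a UTR for 32 of the 46 genes, in coding sequence for 3, in an intron for 2, in a non-coding exon for 1 and outside the annotated gene for 8. It lay within 30 bases of an annotated transcript end for 34 genes and within 100 bases for 37. The 30 bases that end at the site could be read from the annotated transcripts for 36 genes, and 23 of these windows hold AATAAA, the main poly(A) signal, 3 hold its variant ATTAAA and 10 hold neither, searched on the transcript strand only. The windows of 5 genes that the results below turn on are shown 5′ to 3′, with the signal in capitals. They show which mRNA ends were measured and which of them lack a signal.
Psma6, chr12:55418424-55418453, plus strand, UTR: ctctgtataAATAAAacagtgcttttggaa
Psme3, chr11:101323501-101323530, plus strand, UTR: aaaaatacaggtactttgacctctttctaa
Psmd9, chr5:123248932-123248961, plus strand, UTR: tctttttaAATAAAtaacctactaagtgcc
Psmg4, chr13:34178138-34178167, plus strand, UTR: tgacattgaAATAAAcaggttgttttttgt
Psmd2, chr16:20663384-20663413, plus strand, UTR: aactttgttgAATAAAgacctttatcccca
Psma6, Psmd9, Psmg4 and Psmd2 were thus counted behind an AATAAA, and Psme3 was counted 7 bases from an annotated end whose window holds no signal of these letters. Psmd1, a scaffold of the cap, was counted inside its coding sequence, and this site held 87.1% of its counts. Whether its counts came from true mRNA ends was not tested.

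The 156 libraries of the 12 gradients held 14724 to 4170688 counts each (median 811932) and 6404957 to 21449781 per gradient. The 46 genes took 1437828 of the 156884501 counts, or 0.916%. RNA of equal concentration went into each library, so library totals do not measure RNA amounts, and levels are given as CPM, the counts of a gene scaled to the same total in each gradient or class of fractions. The B cell label was met by the markers: the 7 B cell genes listed summed to 2134 to 2835 CPM with LPS alone, 1611 to 2077 CPM after etoposide and 1824 to 2611 CPM with the inhibitor added, with Pax5 alone at a median under 1 CPM. Of the 5 T cell genes in the table, Lck, a tyrosine kinase of T cells, stood at 80.2 to 372 CPM, and Cd3d, Cd3e, Cd3g and Cd8a did not exceed 1.79 CPM. The 6 myeloid genes, all at a median of at least 1 CPM, summed to 33.5 to 88.6 CPM with LPS alone, 51.4 to 165 CPM after etoposide and 56.6 to 112 CPM with the inhibitor added, and the part of these sums in the results below was not tested. Nkg7 of NK cells did not exceed 2.61 CPM, and Alas2 of erythroid cells did not exceed 0.224 CPM. Cdkn1a, a p53 target used as a check of the DNA damage, stood at 26.9 ± 4.29 CPM (SD, n = 4) before etoposide, 722 ± 167 CPM after it and 662 ± 184 CPM after it with the inhibitor, a log2 rise of 4.64 ± 0.29 (SE) from LPS to LPS+ET (edgeR adjusted p 5.3e-07). The LPS+ET gradient of pool LUL16 stood apart: heavy polysomes held 30.4% of its counts, against 52.3% to 68.2% in the other 7 LPS and LPS+ET gradients, and 37.6% to 55.5% in LPS+ET+KU. Several results that use it are given with and without it, and the others only with it.

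In the LPS gradients the proteasome mRNAs were among the more abundant ones. The 43 members that passed the expression filter had a median level of 147 CPM, against 13.3 CPM over all 12755 genes that passed. Psma6, an alpha ring subunit, was the most abundant at 987 ± 97.9 CPM (SD, n = 4), with 1051, 1072, 856 and 970 CPM in LUL15, LUL16, LUL17 and LUL18. Psme3, which encodes the nuclear activator PA28 gamma, followed at 803 ± 170 CPM, and Psme1, the interferon-inducible activator subunit PA28 alpha, at 795 ± 178 CPM. The ranges of these 3 genes overlap. Psmb1, a non-catalytic beta subunit, followed at 749 to 812 CPM, below Psma6 and inside the ranges of Psme3 and Psme1, and Psmb4, also non-catalytic, stood at 657 to 717 CPM, below Psmb1. Although the subunits of a ring are present in equal numbers in the particle, their counts were far apart. In the alpha ring the means ran from 987 CPM for Psma6 to 6.61 CPM for Psma4. In the beta ring the catalytic Psmb6 stood at 211 to 307 CPM and the catalytic Psmb5 at 12.6 to 18.4 CPM. Only mapped poly(A) sites were counted, and the part of this in the low counts of Psma4 and Psmb5 was not tested. The third catalytic gene, Psmb7, had 7 counts in all libraries together. These were counted at a site inside its coding sequence, 22697 bases from the nearest annotated transcript end, so the annotated ends of its mRNA were not counted.
Psmb7, chr2:38633868-38633897, minus strand, coding sequence: catctatcctcatggatcaactgataaatt
Psmb7 did not pass the expression filter, nor did Psma8, the testis alpha subunit, with 34 counts, or Psmb11, the subunit of the thymus proteasome, with 5. Psme2, the partner of Psme1 in the same activator ring, had 122 counts at an intron site, a mean of 0.7 CPM in LPS, and passed in the sum over all fractions and in 1 of the 2 tests of the profile, but in no class of fractions. It has a near-identical copy in the genome, Psme2b, so its values are uncertain. Psma4 of the alpha ring, at 4.71 to 9.0 CPM, did not pass in monosomes, and Psmc3ip was next lowest at 12.9 CPM. Counts at the sites of Psma3, Psme1 and Psmc3ip face a gene on the opposite strand (3110056K07Rik, Emc9 and Mlx), and Psmg3 shares its strand with Gm26938. In such bulk samples fewer cells that make an mRNA and less of it per cell cannot be told apart.

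Taken as a share of the counts, the 46 genes were richer in the deeper part of the gradient. In LPS they made up 0.508% ± 0.033 of monosome counts (SD, n = 4), 0.668% ± 0.106 of light and 1.26% ± 0.135 of heavy polysome counts. Gene by gene, heavy polysomes were compared with monosomes within each gradient, on the log2 scale of the edgeR fit. Of the 42 members tested, 35 were higher in heavy polysomes and 2 were lower, while 28.5% of all 11034 genes tested were called higher. The median log2 difference was 1.04 for the members and 0.11 for all genes. The scaling moves both: when every fraction was given equal weight, the medians were 1.52 and 0.60, so that the members lay 0.93 above all genes in the first case and 0.91 in the second.

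Most members of nearly every role were called higher. All 6 ATPases were called higher in heavy polysomes (median log2 difference 0.98), as were 10 of 11 non-ATPase subunits (1.25), 6 of 7 alpha ring genes (1.14), 4 of 6 beta ring genes (0.93), all 3 activators tested (1.71) and all 3 chaperones of the cap (0.68). Psmd2, the cap subunit that docks ubiquitin shuttles, stood at 42.9, 45.6, 13.6 and 16.0 CPM in the LPS monosomes of LUL15, LUL16, LUL17 and LUL18, and at 183, 219, 83.1 and 99.0 CPM in their heavy polysomes. Within each of the 4 gradients its heavy polysome level was 4.28 to 6.18 times its monosome level. The edgeR estimate, which also scales the classes to each other, was smaller than these ratios (log2 difference 1.83 ± 0.152 SE, adjusted p 3.1e-13). With equal weight per fraction the difference of Psmd2 was 2.30. Psme4, the large activator PA200, stood at 41.2 to 53.5 CPM in monosomes and at 224 to 279 CPM in heavy polysomes (1.77 ± 0.148). Psmd1 had the largest difference of the 42, 1.93 ± 0.172. Psmc6, an ATPase, was the gene called higher with the smallest difference, at 0.50 ± 0.142, and lost the call without the LPS gradient LUL15 (0.40) or LUL16 (0.37).

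The genes that went the other way were Psmg4 and Psmb1. Psmg4 encodes a small chaperone that helps to build the alpha ring. It stood at 88.4, 91.6, 82.0 and 65.4 CPM in LPS monosomes, at 185, 160, 192 and 146 CPM in light polysomes and at 32.3, 25.2, 30.0 and 23.6 CPM in heavy polysomes. The 3 classes did not overlap, light polysomes being highest and heavy polysomes lowest in all 4 gradients. Psmg4 was lower in heavy polysomes than in monosomes by a log2 difference of -2.12 ± 0.137 (adjusted p 2.5e-16), and by -1.47 with equal weight per fraction. Psmb1 stood at 980, 892, 1182 and 985 CPM in LPS monosomes and at 859, 782, 688 and 751 CPM in heavy polysomes, again without overlap (-0.95 ± 0.154, adjusted p 1.7e-06). Its plain CPM ratio was 0.582 to 0.877, and with equal weight per fraction its difference was -0.55 and still called. Psmc3ip, which is no subunit, had a difference of -0.66 ± 0.233 that did not pass the test and changed sign with equal weight per fraction (0.20).

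**Figure D1:**
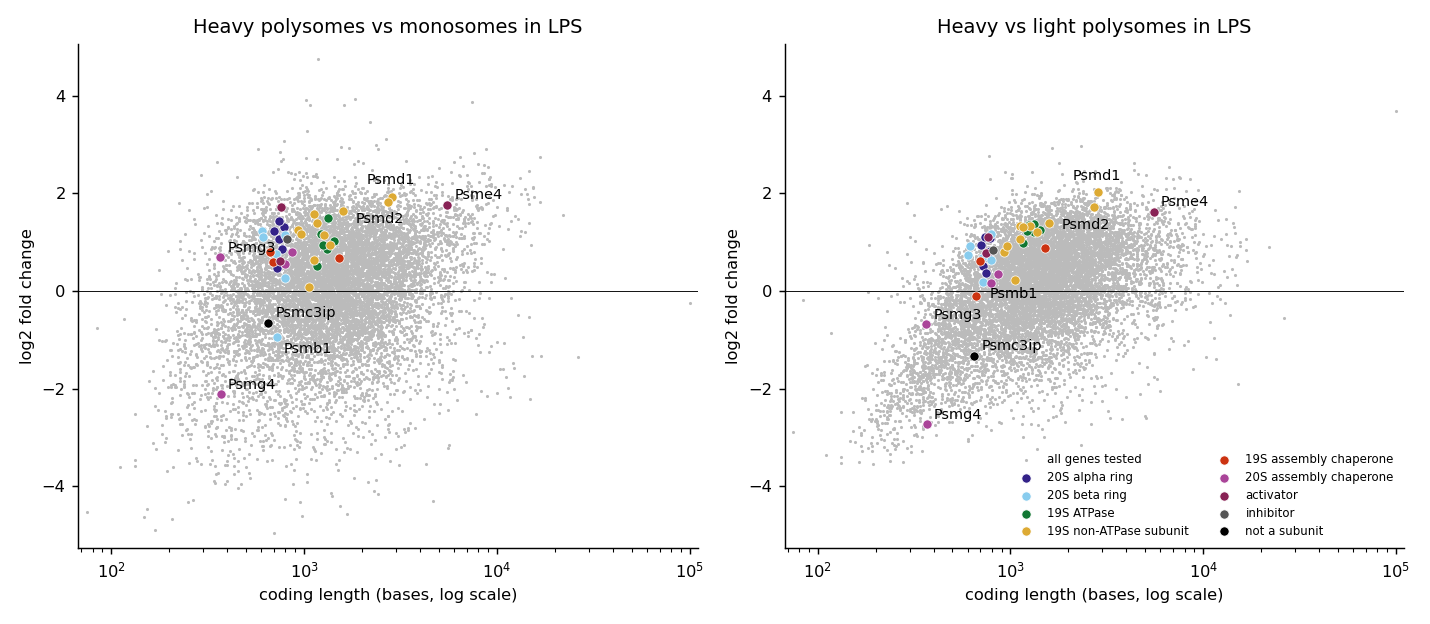
Coding length in bases (horizontal, log scale) against the log2 difference between heavy polysomes and monosomes (left) and between heavy and light polysomes (right) in the LPS gradients. Each grey dot is 1 of the 10171 genes with a coding length and each coloured dot 1 of 42 proteasome genes, coloured by role; most of the latter lie above 0, and Psmg4 lies lowest in both panels at -2.12 and -2.73.

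Along the gradient, members with longer coding sequences lay deeper. Between heavy and light polysomes, 32 members were called higher and 3 lower in LPS, while 29.6% of all genes were called higher, and the median difference was 0.92 for members and 0.11 for all genes. Across the 42 members, Spearman's rho between coding length and this difference was 0.77, against 0.47 across 10171 genes. Without Psmg3 and Psmg4, the shortest coding sequences at 366 and 369 bases, it was 0.74 over 40 members. These are descriptions across genes that share the same libraries, and genes are not replicates. Psmd1, Psmd2 and Psme4, with 2859, 2724 and 5529 coding bases, led with 2.02 ± 0.16, 1.72 ± 0.141 and 1.63 ± 0.142. Psmg4, Psmc3ip and Psmg3 were lower in heavy than in light polysomes, by -2.73 ± 0.135, -1.33 ± 0.193 and -0.69 ± 0.195, and Psmg3 lost its call without LPS gradient LUL16 (-0.45).

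The members also lay above other genes of their coding length. For heavy polysomes against monosomes in LPS, rho was 0.42 over the members and 0.24 over all genes. Among genes with 450 to 750 coding bases, the 12 members had a median difference of 0.77 and the 1416 genes of that size a median of -0.05. At 750 to 1050 bases the medians were 1.14 for 11 members and 0.14 for 1490 genes. At 1050 to 1500 bases they were 0.98 for 12 members and 0.20 for 2028 genes, and from 1500 bases on 1.77 for 5 members and 0.37 for 4490 genes. In each of these length classes the member median lay above the gene median. Only below 450 bases, where the members are Psmg3 and Psmg4, were the medians close, at -0.71 and -0.93, and the members themselves were 0.69 and -2.12. Abundance was not matched here, and its part in the difference was not tested.

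The count of members that differed between light polysomes and monosomes depended on how the fractions were weighted. In LPS 6 of 42 members were called higher and 2 lower, where 12.9% of all genes were called higher, and the medians were 0.11 and -0.01. With equal weight per fraction 23 members were called in place of 8, 22 of them higher, with medians of 0.55 and 0.44. The median of all genes thus rose along with that of the members. The share of all genes called with this weight is not given here, so the 23 calls are no result particular to the members. Psmg3, like Psmg4 a chaperone of the core, stood at 58.2, 72.6, 38.1 and 32.5 CPM in monosomes and at 198, 272, 122 and 123 CPM in light polysomes. All 4 light values lie above all 4 monosome values (1.38 ± 0.21, adjusted p 1.7e-06). Psmd9, a chaperone of the cap, was also higher (0.90 ± 0.18), as were Psma7 of the alpha ring (0.71 ± 0.209), Psmg4 (0.62 ± 0.131), Psme3 (0.61 ± 0.152) and Psmd14 of the cap (0.46 ± 0.136). Psmb1 was lower (-1.12 ± 0.155), and so was Psmc6 (-0.47 ± 0.145, adjusted p 0.0099), whose difference turned to 0.08 with equal weight per fraction. Psmc6, Psmd14 and Psma7 lost their calls when any of the 4 LPS gradients was left out, and the count of calls fell from 8 to between 4 (without LUL15 or LUL16) and 5 (without LUL17 or LUL18).

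Most members were also higher in heavy polysomes after the treatments, with smaller medians. In LPS+ET 26 of the 42 members were called higher in heavy polysomes than in monosomes and 2 were lower, with 26.9% of all genes called higher. The median difference was 0.86 for members and 0.09 for all genes. In LPS+ET+KU 27 members were higher and 2 lower, with 29% of all genes called higher, and the medians were 0.70 and 0.09. Psmd2 was highest in both, at 2.04 ± 0.149 and 1.53 ± 0.14, and Psmg4 lowest, at -2.48 ± 0.142 and -2.35 ± 0.135. Psmd13 (1.85 ± 0.162) and the catalytic Psmb5 (1.80 ± 0.342, from a level of 0.715 to 5.54 CPM in monosomes) came next in LPS+ET, and Psme4 (1.37 ± 0.142) and Psmd3 (1.13 ± 0.134) in LPS+ET+KU. The value of Psmb5 was 2.29 without LPS+ET gradient LUL16 and 1.40 without LPS+ET gradient LUL17. The smallest differences called higher were those of the lid subunit Psmd6 in LPS+ET (0.54 ± 0.153; without gradient LUL15 0.42 and without LUL17 0.40, no longer called) and of the ATPase Psmc3 in LPS+ET+KU (0.44 ± 0.128; without LUL15 0.33 and without LUL17 0.39, no longer called). Psmb1 was called lower after etoposide (-0.73 ± 0.155) and after etoposide with the inhibitor (-1.02 ± 0.154). In LPS+ET its plain CPM ratio of heavy polysomes to monosomes was 1.41, 0.484, 1.02 and 0.989 in the 4 gradients, and with equal weight per fraction its difference was -0.08 and not called. Without the LPS+ET gradient LUL16, 32 members were called in LPS+ET in place of 28, and Psmb1 stood at -0.53.

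**Figure D2:**
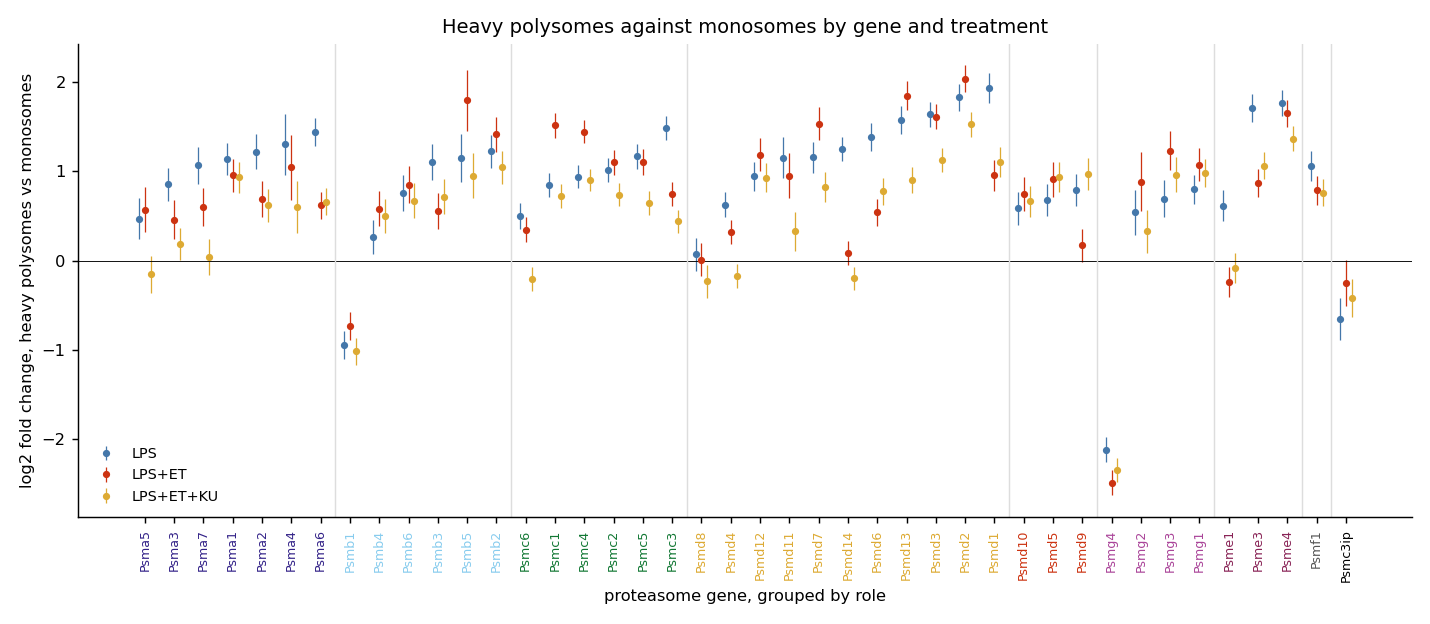
Log2 difference between heavy polysomes and monosomes (vertical) for 42 proteasome genes grouped by role (horizontal), in the 3 treatments. Points are edgeR estimates over 4 gradients per treatment and bars 1 SE. Psmg4 and Psmb1 lie below 0 in all 3 treatments. Psmd14 lies at 1.25 with LPS alone, at 0.08 after etoposide and at -0.20 with the inhibitor added. The scaling between classes moves these heights. The plain CPM ratio of Psmd14 stayed above 1, at 1.36 to 1.92 in LPS+ET and 1.14 to 1.73 in LPS+ET+KU. With equal weight per fraction its differences there were 0.54 and 0.31.

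Relative levels of ribosome-associated mRNA with and without DNA damage were compared between treatments over fractions 4 to 16 together. Each fraction entered this sum by the depth of its library, so amounts of mRNA on ribosomes were not compared. Between LPS and LPS+ET, 3 of the 43 members tested were called, all lower, where 12.7% of the 12755 genes were called. The median log2 difference was 0.01 for the members and 0.03 for all genes, with 22 members above 0 and 21 below. The genes called were Psmd9, Psme3 and Psma6, which belong to the chaperones of the cap, the activators and the alpha ring, and no ATPase, beta ring gene or chaperone of the core was called.

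Psmd9, a chaperone that holds ATPases of the cap together during assembly, stood at 260, 389, 223 and 262 CPM in LPS and at 178, 157, 124 and 141 CPM in LPS+ET. The groups did not overlap, and Psmd9 fell by 1.05 ± 0.215 on the log2 scale (SE, adjusted p 0.0032). With equal weight per fraction the difference was -0.66 and no longer called (adjusted p 0.0287). In LPS+ET+KU it stood at 309, 350, 232 and 338 CPM, back in the range of LPS and above all LPS+ET gradients. Its difference between LPS+ET+KU and LPS+ET was 1.04 ± 0.215, which did not pass the test (adjusted p 0.027) but did with the pool as a block (1.02, adjusted p 6.1e-04) and in DESeq2 (adjusted p 2.7e-04), and was 0.74 with equal weight per fraction (adjusted p 0.083). Against LPS the value in LPS+ET+KU was -0.01 ± 0.212.

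Psme3 stood at 818, 1004, 588 and 800 CPM in LPS, at 544, 273, 428 and 489 CPM in LPS+ET and at 453, 349, 410 and 396 CPM in LPS+ET+KU. Every LPS gradient lay above all 8 etoposide gradients. The log2 difference was -1.01 ± 0.223 between LPS+ET and LPS (adjusted p 0.0052) and -1.12 ± 0.224 between LPS+ET+KU and LPS (adjusted p 0.0034). The latter was -0.72 with equal weight per fraction and no longer called (adjusted p 0.0124). Psma6 showed the same order, with 741, 356, 664 and 599 CPM in LPS+ET and 473, 408, 482 and 480 CPM in LPS+ET+KU, all below its LPS levels. It fell by 0.87 ± 0.204 (adjusted p 0.0078) and by 1.21 ± 0.205 (adjusted p 0.0012). Both comparisons share the LPS gradients, so they are no independent evidence of each other. Without the LPS+ET gradient LUL16, in which Psme3 and Psma6 were lowest, the differences to LPS were -0.86 for Psme3, -0.70 for Psma6 and -1.09 for Psmd9, and all 3 were called. The count depended on other gradients more: it was 0 without LPS gradient LUL16 or LPS+ET gradient LUL17, and 1 without LPS gradient LUL15, LPS gradient LUL18 or LPS+ET gradient LUL18.

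**Figure D3:**
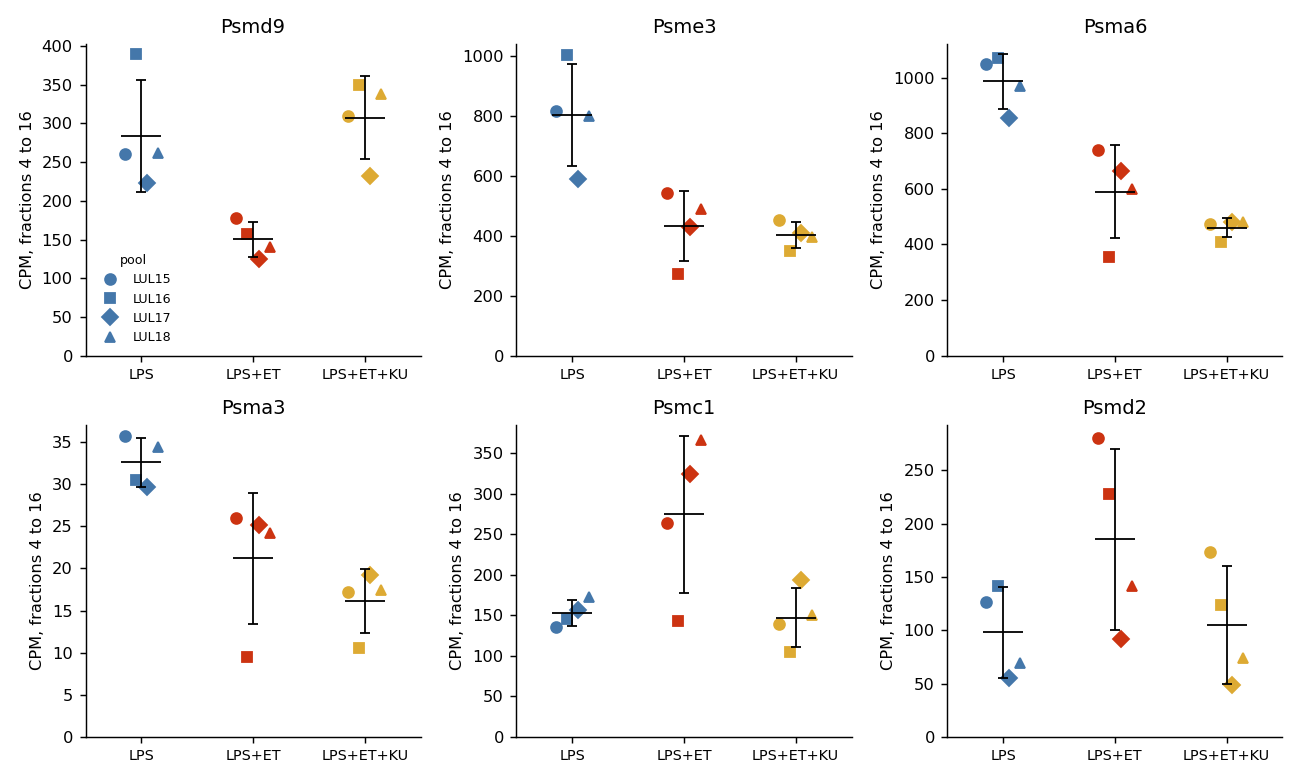
Level of 6 proteasome genes in CPM over fractions 4 to 16 (vertical) in the 4 gradients of each treatment (horizontal), with the pool given by the shape of the symbol; black lines are the mean and bars 1 SD (n = 4). Psmd9 lies at 124 to 178 CPM in LPS+ET, below all LPS and LPS+ET+KU gradients, and Psma6 at 856 to 1072 CPM in LPS, above all others.

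At the other end, Psmd2, Psmc1 and Psmd3 had the largest differences upward between LPS and LPS+ET, none of which passed the test. Psmc1 is an ATPase whose tail helps to open the gate of the core. It stood at 136, 145, 157 and 173 CPM in LPS and at 264, 144, 324 and 367 CPM in LPS+ET, where LUL16 alone overlapped with LPS (0.74 ± 0.278, adjusted p 0.074). Psmd2 stood at 126, 142, 54.8 and 69.3 CPM in LPS and at 281, 228, 91.4 and 141 CPM in LPS+ET. In each pool the LPS+ET value was the higher of the pair, while the pools differed from each other by more than the treatments did (0.79 ± 0.413, adjusted p 0.2). Psmd3, a scaffold of the lid, differed by 0.42 ± 0.227, and by 0.26 without LPS+ET gradient LUL15.

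Because gradients of the same pool deviated together, the fit was repeated with the pool as a block. It called 8 members between LPS+ET and LPS, where 26.7% of all genes were called: Psmd2 was higher (0.78, adjusted p 4.1e-04), and Psmd9, Psme3, Psma6, the alpha ring gene Psma3 (-0.81), the lid genes Psmd11 (-0.80) and Psmd14 (-0.58) and Psmg2 (-0.76) were lower. The members' share of calls, 3 of 43 without the block and 8 of 43 with it, was under the share of all genes in both fits.

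Adding the ATM inhibitor changed few genes of the whole table in the edgeR fit without the pool block. Between LPS+ET+KU and LPS+ET that fit called 0.455% of all genes and no member. At an unadjusted p under 0.05 there were 5 members, and DESeq2 called 1, Psmd9. The shares of all genes at these settings are not given here, so these counts are no result about the members as a set. The members were nonetheless mostly on 1 side: 41 of 43 had a difference below 0, with a median of -0.30 against 0.04 for all genes. With equal weight per fraction the median was -0.13 and 36 of 43 lay below 0. Abundance was not matched between the members and all genes, and its part in this was not tested. The medians of the roles ran from -0.47 over the non-ATPase subunits of the cap and -0.40 over the alpha ring to -0.08 over the activators. Psmc1 (139, 105, 193 and 150 CPM in LPS+ET+KU; -0.90 ± 0.278) and Psmd2 (173, 124, 48.7 and 73.7 CPM; -0.83 ± 0.413) had the largest differences downward, and both were called with the pool as a block (adjusted p 0.0067 and 0.0013). With equal weight per fraction the difference of Psmc1 was -0.51. Psmd7, which pairs with Psmd14 in the lid, differed by -0.71 ± 0.515, a value that was -0.27 without LPS+ET gradient LUL17, -1.12 without LPS+ET+KU gradient LUL17 and -0.21 with equal weight per fraction. The genes at the upper end beside Psmd9 were Psme2 at 0.15 ± 0.7, a value that rests on few counts and turned to -0.0036 without LPS+ET gradient LUL16 and to -0.28 without LPS+ET+KU gradient LUL17, and Psme1 at -0.06 ± 0.204, which turned to 0.07 without LPS+ET gradient LUL15 and to 0.0074 without LPS+ET+KU gradient LUL17. With the block, Psmd9, Psmd2 and Psmc1 were called and 6.36% of all genes were.

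Relative to LPS, 2 of 43 members were called, Psma6 and Psme3, both lower in LPS+ET+KU, where 10.7% of all genes were called. The median was -0.32 against 0.09 for all genes, and 39 members lay below 0. With equal weight per fraction the medians were -0.13 and 0.13. Monosomes held 13.7% to 17.6% of the counts in the LPS gradients, less than in LPS+ET+KU, and the part of this mix in the medians was not tested. Abundance was not matched here either. Psma3, which like Psma6 belongs to the alpha ring, stood at 35.7, 30.6, 29.7 and 34.5 CPM in LPS and at 17.2, 10.5, 19.2 and 17.4 CPM in LPS+ET+KU. The groups did not overlap, but the difference of -1.13 ± 0.275 missed the threshold (adjusted p 0.0105) and passed it with the block (adjusted p 3.3e-04). The genes with the largest differences upward did not pass: Psme2 at 0.42 ± 0.707, which fell to -0.97 with equal weight per fraction and to -0.02 without LPS+ET+KU gradient LUL17, Psmd10, the chaperone also known as gankyrin, at 0.24 ± 0.223, and Psmf1, the inhibitor PI31, at 0.14 ± 0.189. Without LPS gradient LUL17 these values were 0.12 for Psmd10 and 0.021 for Psmf1, and with equal weight per fraction 0.46 and 0.30. The block called 8 members, all lower, where 28.1% of all genes were called: Psma6, Psme3, Psma3, Psmd1, Psmd11, Psmd12, Psmd14 and Psmg2. The unblocked count fell to 1 without LPS gradient LUL16, LPS gradient LUL18 or LPS+ET+KU gradient LUL18.

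As a summed share of all counts, the 46 genes held 0.977% ± 0.089 with LPS alone (SD, n = 4), 0.961% ± 0.214 after etoposide and 0.799% ± 0.079 after etoposide with the inhibitor. The wide spread in LPS+ET came from LUL16 at 0.652%, next to 1.02% to 1.15% in the other 3 gradients. These shares also depend on how the counts of a gradient were split between the classes, and the part of this was not tested.

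The treatments were then compared within each class of fractions. In monosomes no member was called by edgeR without the pool block in any comparison. Of 8932 genes, 9.52% (LPS+ET against LPS), 0.213% (LPS+ET+KU against LPS+ET) and 5.96% (LPS+ET+KU against LPS) were called. Among the 41 members tested, the unadjusted p was under 0.05 for 12, 2 and 6, and the counts from DESeq2 were 4 (Psmd4, Psmc3 and Psme1 higher, Psmd9 lower), 1 (Psmd9 higher) and 2 (Psmd4 higher, Psma6 lower). For these counts, too, the shares of all genes are not given. With the pool as a block, 10 members were called between LPS+ET and LPS, where 24.6% of all genes were called, and 8 of them were higher: Psmd4, a ubiquitin receptor of the cap (0.65), Psmc3 (0.67), Psme1 (0.53), Psmd2 (0.82), Psmf1 (0.69), Psmd3 (0.55), Psmb3 (0.52) and Psmd14 (0.47). Psmd9 (-0.62) and Psmb2 (-0.55) were lower. The block called, between LPS+ET+KU and LPS+ET, Psmd9 higher (0.77) and Psmd1 lower (-0.86), with 5.62% of all genes called. It called 7 between LPS+ET+KU and LPS, with 23.2% of all genes called: Psmd4, Psmd14, Psmf1 and Psmc3 were higher and Psma6, Psmb4 and Psmd12 were lower.

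In light polysomes 1 of 42 members was called between LPS+ET and LPS, where 10.6% of all genes were: Psme3, at 478, 725, 361 and 391 CPM in LPS and 346, 277, 207 and 242 CPM in LPS+ET (-1.0 ± 0.239, adjusted p 0.0091). All LPS values lay above all LPS+ET values, but the call was lost when any gradient other than LPS LUL17 was left out (-0.74 to -1.13). No member was called between LPS+ET+KU and LPS+ET (0.292% of all genes), none in DESeq2 and none with the block. At an unadjusted p under 0.05 there were 3 members, a count given without the share of all genes. Between LPS+ET+KU and LPS 3 members were lower, where 7.13% of all genes were called: Psme3 (-1.14 ± 0.24), Psma6 (-0.77 ± 0.175) and Psmd11. Psmd11, a scaffold of the lid, stood at 36.3, 36.9, 34.6 and 56.0 CPM in LPS and at 16.9, 18.7, 24.4 and 21.1 CPM in LPS+ET+KU, without overlap (-1.24 ± 0.233, adjusted p 0.0028). This count fell to 1 without LPS gradient LUL15 or LUL16 or LPS+ET+KU gradient LUL17 or LUL18, and to 0 without LPS+ET+KU gradient LUL15. With the block, 8 members were called between LPS+ET and LPS, with 25% of all genes called (Psmd2 and Psmd4 higher; Psme3, Psma3, Psma6, Psmb2, Psmd9 and Psmg2 lower), and 8 between LPS+ET+KU and LPS, with 24.1% of all genes called (Psmd4 higher; Psmd11, Psme3, Psma6, Psma3, Psmb2, Psmg2 and Psmg4 lower).

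In heavy polysomes Psmd9 had the largest response of the set, and it ran in opposite directions with etoposide and with the inhibitor. It stood at 301, 378, 253 and 301 CPM in LPS, at 140, 92.9, 132 and 150 CPM in LPS+ET and at 425, 448, 328 and 509 CPM in LPS+ET+KU. The LPS+ET gradients lay below all others, and the LPS+ET+KU range overlapped the upper part of that of LPS. The difference was -1.34 ± 0.237 between LPS+ET and LPS (adjusted p 0.0012) and 1.64 ± 0.239 between LPS+ET+KU and LPS+ET (adjusted p 0.0039). These comparisons share the LPS+ET gradients, so a low level there moves them in opposite directions. Without LPS+ET gradient LUL16 the differences were -1.24 and 1.54, both called. Psmd9 was the member called between LPS+ET+KU and LPS+ET, where 0.572% of all genes were called, and it lost that call without LPS+ET gradient LUL15, LUL17 or LUL18 or LPS+ET+KU gradient LUL18 (1.52 to 1.75).

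Psme3 was the other of 2 members called in heavy polysomes between LPS+ET and LPS, where 9.69% of all genes were called. It stood at 828 to 1377 CPM in LPS and at 360 to 692 CPM in LPS+ET, without overlap (-1.09 ± 0.236, adjusted p 0.0048). The count was 1 without LPS gradient LUL15, LUL16 or LUL18 or LPS+ET gradient LUL17, and 4 without LPS+ET gradient LUL16. Between LPS+ET+KU and LPS, Psma6 (-1.31 ± 0.265) and Psme3 (-1.05 ± 0.236) were lower, where 7.95% of all genes were called, and neither stayed called without LPS gradient LUL15, LUL16 or LUL18 or LPS+ET+KU gradient LUL15, LUL17 or LUL18. The member medians were -0.06, -0.33 and -0.39 in the 3 comparisons, against 0.01, 0.00 and 0.05 for all genes, whereas in monosomes they were 0.00, -0.09 and -0.03 and in light polysomes -0.13, -0.03 and -0.15. With the block, 6 members were called between LPS+ET and LPS (20.6% of all genes; Psmc1 and Psmd2 higher, Psmd9, Psme3, Psma6 and Psmd14 lower), 3 between LPS+ET+KU and LPS+ET (3.27% of all genes; Psmd9 higher, Psmc1 and Psmd2 lower) and 6 between LPS+ET+KU and LPS (21.4% of all genes; Psmd1, Psmd14, Psma3, Psma6, Psme3 and Psmd12 lower).

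Whether the distribution along the gradient itself differed between treatments was tested by the interaction of treatment and class. Between LPS+ET and LPS, 5 of 42 members had a lower ratio of heavy polysomes to monosomes and none a higher one, where 5.1% of all genes were called. Psmd14, the subunit of the cap that cuts ubiquitin off the substrate, changed the most. Its monosome level was 155, 148, 89.1 and 102 CPM in LPS and 192, 225, 124 and 118 CPM in LPS+ET, while its heavy polysome level was 541, 559, 284 and 359 CPM in LPS and 364, 304, 172 and 226 CPM in LPS+ET. In every pool the monosome value was higher and the heavy value lower after etoposide (ratio change -1.17 ± 0.191 on the log2 scale, adjusted p 6.9e-05). Psmd14 was called with each gradient left out in turn. Psmd1 (-0.98 ± 0.245), Psmd6 (-0.84 ± 0.216), Psme3 (-0.84 ± 0.215) and Psmc3 (-0.74 ± 0.184) were near the threshold, with adjusted p between 0.0064 and 0.0083, and lost their calls in 6, 7, 8 and 8 of the 8 fits without a gradient. With equal weight per fraction the changes of Psmd1 (-0.20), Psme3 (-0.67) and Psmc3 (-0.72) were not called. Psmd14 (-1.16) and Psmd6 (-0.97) kept their calls, and Psma6 (-0.69) was called in addition. The count of calls was 3 without LPS gradient LUL17, 2 without LPS+ET gradient LUL15 or LUL16, and 1 without any other. The member median was -0.06 and that of all genes 0.01. Between LPS+ET+KU and LPS+ET no member was called, where 0.181% of all genes were, and without LPS+ET gradient LUL16 1 was called. An unadjusted p under 0.05 was found for 11 members, a count given without the share of all genes. The medians were -0.28 for members and -0.05 for all genes, and -0.13 and 0.03 with equal weight per fraction.

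The single fractions gave a finer view of the same distributions. In LPS 16 of the 43 members had their highest mean level in fraction 13, 11 in fraction 12 and 8 in fraction 11, while Psmg4 peaked in fraction 8 and Psmb1 in fraction 5. Psma6 peaked in fraction 12 in all treatments, at 2314 ± 591 CPM with LPS alone (SD, n = 4), 1087 ± 358 after etoposide and 760 ± 202 with the inhibitor added. Psmd9 had a narrow peak in fraction 11 in LPS, at 637 ± 66.9 CPM with 567 to 728 in the 4 gradients. In LPS+ET fraction 11 held 180 ± 39 CPM and the highest mean lay in fraction 10, at 388 ± 216 CPM, a fraction in which LPS held 433 ± 201. In LPS+ET+KU fraction 11 held 661 ± 187 CPM and fraction 12 521 ± 180, against 308 ± 71.1 in fraction 12 of LPS. After etoposide the levels of Psmd9 were thus below all LPS levels in fraction 11 and overlapped them in fraction 10.

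**Figure D4:**
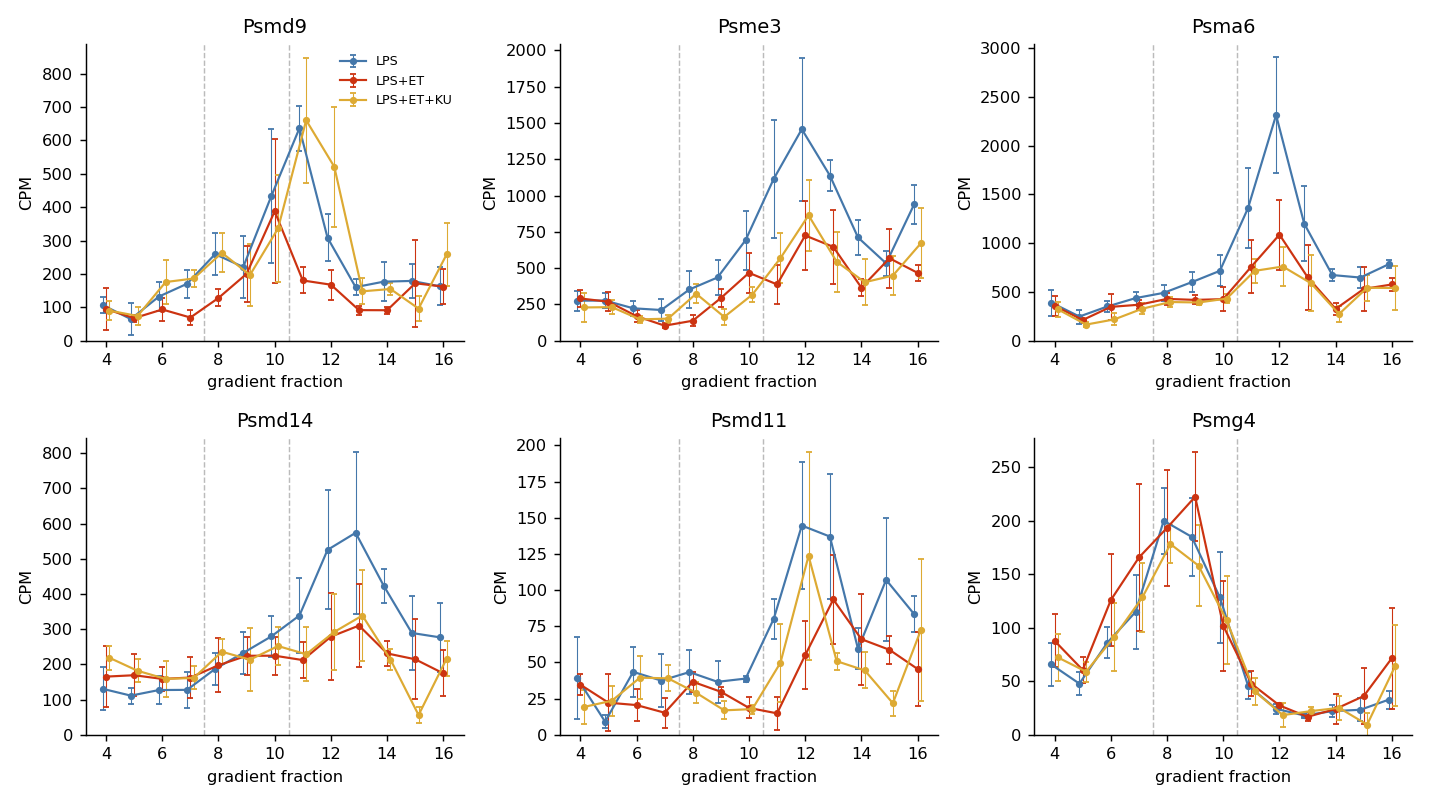
Level of 6 proteasome genes in CPM (vertical) in fractions 4 to 16 (horizontal) of the 3 treatments; points are means, bars 1 SD over 4 gradients, and dashed lines part monosomes, light and heavy polysomes. Psma6 peaks in fraction 12 at 2314, 1087 and 760 CPM, Psmd9 loses its peak in fraction 11 in LPS+ET, and Psmg4 peaks in light polysomes.

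The shape over 13 fractions was tested with a term for each gradient. Between LPS+ET and LPS, 5 of 43 members differed, where 5.72% of all genes did: Psmd11 (adjusted p 2.3e-05), Psme3 (2.4e-04), Psmd14 (5.5e-04), Psmg3 (9.2e-04) and Psmd9 (0.0018). Psmg3 moved its highest mean from fraction 10 (280 ± 74.3 CPM) in LPS to fraction 11 (414 ± 138 CPM) in LPS+ET. Psmd11 held 145 ± 43.7 CPM in its peak fraction 12 in LPS and 93.5 ± 31 CPM in its peak fraction 13 in LPS+ET. Between LPS+ET+KU and LPS+ET, 9 of 42 members differed, where 3.63% of all genes did. Psmd11 (adjusted p 6.0e-06), Psmd9 (6.1e-05) and Psme3 (0.0011) had the smallest p, and Psmd14, Psmc2, Psme1, Psmd7, Psmb3 and Psmd1 followed. The first count was 5 without LPS+ET gradient LUL16 and 1 without LPS gradient LUL15. The second was 11 without LPS+ET gradient LUL16, and 2 or 3 without LPS+ET gradient LUL15, LUL17 or LUL18 or LPS+ET+KU gradient LUL15, LUL16 or LUL18.

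Of 33 other genes of the ubiquitin and proteasome pathway, at most 2 were called in any comparison of treatments within ribosome-associated mRNA or a class, and of the immunoproteasome genes among them only Psmb10 was. Psmb8, its chymotrypsin-like subunit, stood at 1392 ± 127 CPM in LPS (SD, n = 4), above every constitutive gene. Its level was 916 ± 125 CPM after etoposide and 1039 ± 136 CPM with the inhibitor added. The difference between LPS+ET and LPS was -0.72 ± 0.191, which missed the threshold (adjusted p 0.0155) although the groups did not overlap. Psmb10 stood at 192, 195, 124 and 135 CPM in LPS and at 122, 74.2, 90.6 and 82.0 CPM in LPS+ET, without overlap, and was lower (-0.93 ± 0.196, adjusted p 0.0038). Psmb9 was not called, at 162 ± 23.4 CPM in LPS and 217 ± 61.3 CPM in LPS+ET (0.31 ± 0.249, adjusted p 0.42). Psmb10 was the only 1 of the 33 called between LPS+ET and LPS, where 12.7% of all genes were. None was called between LPS+ET+KU and LPS+ET, where 0.455% of all genes were. Against LPS, Psmb10 (-0.88) and the ubiquitin-activating enzyme Uba6 (-1.66) were lower in LPS+ET+KU, 2 of the 33 where 10.7% of all genes were called. In monosomes the ubiquitin gene Ubb (0.83) and Txnl1, a thioredoxin that binds the cap (0.75), were higher in LPS+ET than in LPS, and they were also higher in LPS+ET+KU (1.13 and 0.69), where 9.52% and 5.96% of all genes were called. In light polysomes Ubb was higher in LPS+ET+KU than in LPS (0.91), with 7.13% of all genes called. In heavy polysomes Psmb10 was lower in LPS+ET (-1.08) and Uba6 in LPS+ET+KU (-1.82), each against LPS, with 9.69% and 7.95% of all genes called. Along the LPS gradient 21 of 32 pathway genes tested were higher in heavy polysomes than in monosomes and 3 were lower, where 28.5% of all genes were called higher. Among the latter were Rps27a (-3.96), which encodes ubiquitin fused to a ribosomal protein, and Shfm1 (-1.90), the small cap subunit also called Sem1. Rps27a stood at only 1.30 to 2.17 CPM over fractions 4 to 16 in LPS, so its value rests on few counts. With etoposide the heavy to monosome ratio rose for Shfm1 (1.07) and the shuttle factor Ubqln4 (0.95) and fell for Faf1 (-0.93), a cofactor of the segregase that unfolds ubiquitin-tagged proteins, 3 of 32 genes where 5.1% of all genes were called.

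For many members the range of levels over library pools was larger than that over treatments. The pool range spans 4 means of 3 gradients each, and the treatment range 3 means of 4 gradients each. The pool range therefore tends to be the larger even where neither has an effect. For 30 of 43 members (69.8%) the range of the pool means on the log2 scale was larger than the range of the treatment means, as it was for 55.5% of all genes, and it was over 1 for 8 members (18.6%) and 16.3% of all genes. Psmd1 had the widest: in LPS it stood at 44.3, 25.3, 260 and 181 CPM in LUL15, LUL16, LUL17 and LUL18, in LPS+ET at 49.3, 15.9, 196 and 127 CPM and in LPS+ET+KU at 28.7, 10.8, 141 and 95.5 CPM. The order of the pools was the same in all 3 treatments, with LUL17 highest, 11.5 times LUL16 on average. This is the gene counted inside its coding sequence, and the part of that site in the spread was not tested. Psma1 and Psma2, alpha ring genes chosen here after their values were seen, went the other way, with 6.38 and 3.55 times as much in LUL15 as in LUL17. Psmd7 was 3.77 times as high in LUL17 as in LUL16, and Psmd2 2.98 times as high in LUL15 as in LUL17. What differed between the pools (animals, library preparation or sequencing) cannot be told apart.

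**Figure D5:**
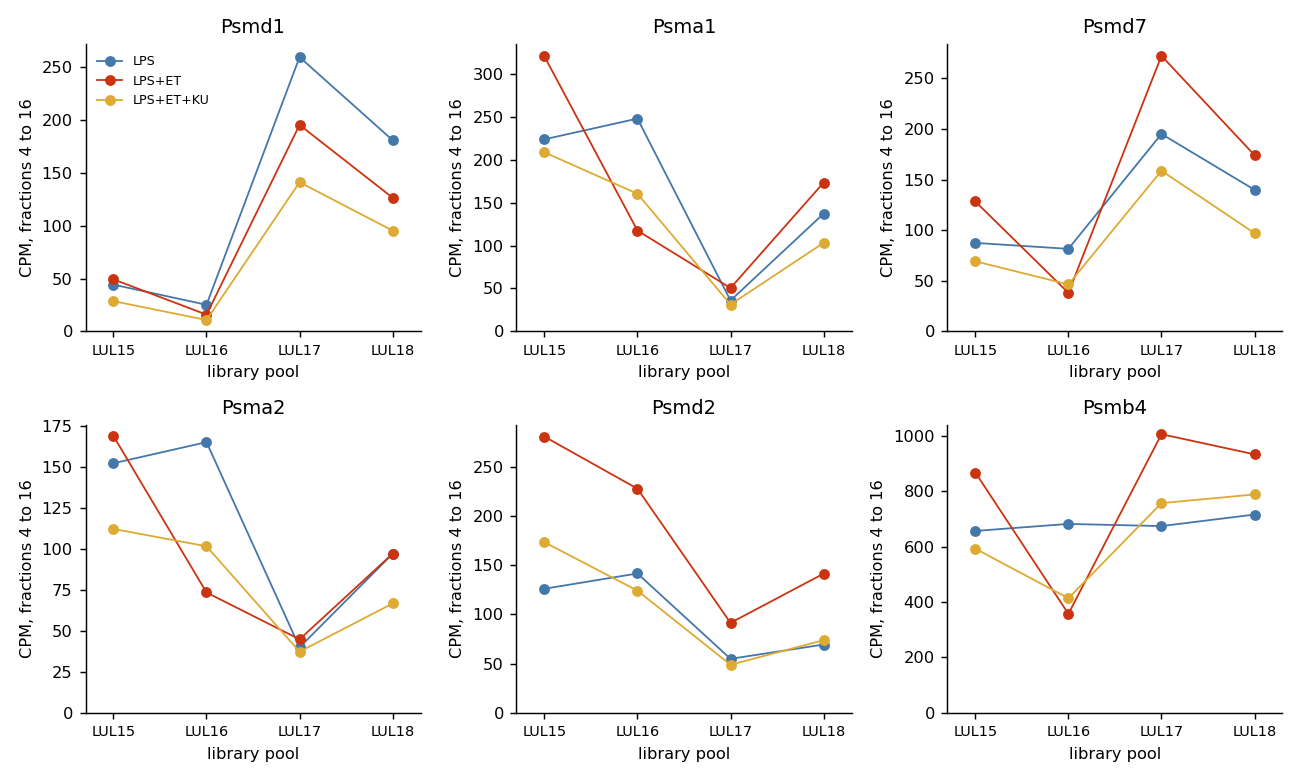
Level of 6 proteasome genes in CPM over fractions 4 to 16 (vertical) by library pool (horizontal); each point is 1 gradient and each line joins the 4 gradients of a treatment to show the order of the pools. Psmd1 lies at 10.8 to 49.3 CPM in LUL15 and LUL16 and at 95.5 to 260 CPM in LUL17 and LUL18, Psma1 and Psma2 are lowest in LUL17, and Psmb4 in LPS stays between 657 and 717 CPM.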

How the data were processed

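Per the methods of the study, the authors made 3′ end libraries from equal RNA of each gradient fraction, aligned the reads to GRCm38 and deposited whole-number counts per gene and fraction, summed over mapped poly(A) sites. Their processing notes name TopHat2 2.0.12, HTSeq and DESeq2 1.6.3. 1 library of fraction 17 belongs to no gradient comparison, and 0 columns of per-sample values were left out.

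The proteasome genes, the pathway and marker lists and the tests were chosen with earlier results of these data known. Of the deposited counts, those of a gradient or of a class of fractions were summed and tested with edgeR 4.0.16 in R 4.3.3 (TMM scaling, filterByExpr, quasi-likelihood F-test), with treatment as the term over all 12 gradients. Classes and the 13 fraction profiles were compared with a term for each gradient. P-values were adjusted by Benjamini-Hochberg over all genes that passed the filter, and a gene was called at an adjusted p under 0.01. SE is the log2 difference divided by the square root of F. The fits recovered known changes in simulated data, but these changes were larger than any named here for a member between treatments. The simulated data also held no differences between pools. How well the fits find smaller changes, or changes beside pool differences, was not tested.

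Pools, read from the column names, pair the gradients: deviations from the treatment means correlated across genes at 0.363 to 0.837 in 12 same-pool pairs (median 0.593) and at -0.653 to 0.340 in 36 other pairs. The block is printed where it changes a call or a count.

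Alternatives were DESeq2 1.42.0, RLE size factors, no filter, the pool block, only the 8 gradients compared, equal weight per fraction (log2 of mean CPM plus 1, limma 3.58.1), an adjusted p under 0.05, the study's own formula for profiles and leaving out each gradient. Named were the called members (where over 6, the 3 largest and 3 smallest), the 3 members at each end of the ribosome-associated comparisons and of the LPS levels, the catalytic subunits, members that failed the filter and called pathway genes. Members named for the block or for the pool spread alone were picked after their values were seen. Sites, sequences and coding lengths come from GENCODE M21 transcripts. Some sequences and 1 pathway gene are not reported here.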

Additional observations from a re-analysis of the deposited data

Results flagged for a closer look

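In 4 of 84 groups of 4 gradients that were looked at, 1 gradient stood far from the other 3 by Dixon's test, which chance does in about 1 in 20 groups. Psma3 stood at 9.52 CPM in the LPS+ET gradient of pool LUL16 and at 24.2 to 25.9 CPM in the other 3. That gradient also had the low share of counts in heavy polysomes, and the part of this in the value was not tested. Psma6 stood at 408 CPM in the LPS+ET+KU gradient of pool LUL16, next to 473 to 482 CPM in the others, and Psmd11 at 63.2 CPM in the same gradient, next to 36.8 to 38.5 CPM. Psme4 stood at 186 CPM in the LPS+ET gradient of pool LUL17, next to 167 to 169 CPM.

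The ratio of heavy polysomes to monosomes differed between LPS+ET and LPS, by the interaction of treatment and class, for Psmd14 (log2 change -1.17), Psmd1 (-0.98), Psmd6 (-0.84), Psme3 (-0.84) and Psmc3 (-0.74). Of these, the change of Psmd14 passed the threshold with each of the 8 gradients left out.

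The library of fraction 17, which no comparison uses, held 777 counts, of which 14 (1.80%) fell on 10 proteasome genes with at most 2 each.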

How the results depend on the processing

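The counts in this section describe the members only, and shares of all genes under an alternative are given only where stated above. In ribosome-associated mRNA the count of called proteasome genes between LPS+ET and LPS was 3, and it was 8 with the pool as a block, 1 with only the 8 gradients compared and 0 to 3 with a gradient left out. Between LPS+ET+KU and LPS+ET the count of 0 was 1 in DESeq2, 3 with the block, 1 at an adjusted p under 0.05 and 0 without any gradient. Between LPS+ET+KU and LPS the count of 2 was 4 in DESeq2, 8 with the block, 1 with equal weight per fraction, 4 at an adjusted p under 0.05 and 1 to 3 with a gradient left out.

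In monosomes the counts of 0 were 4, 1 and 2 in DESeq2 and 10, 2 and 7 with the block, in the order LPS+ET against LPS, LPS+ET+KU against LPS+ET and LPS+ET+KU against LPS, and stayed at 0 with a gradient left out. In light polysomes the count of 1 between LPS+ET and LPS was 3 in DESeq2, 8 with the block and 0 to 1 with a gradient left out, and the count of 3 between LPS+ET+KU and LPS was 8 with the block and 0 to 3 with a gradient left out. In heavy polysomes the counts of 2, 1 and 2 were 4, 2 and 4 in DESeq2, 6, 3 and 6 with the block, and 1 to 4, 0 to 1 and 0 to 2 with a gradient left out.

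Between classes, the count of 37 for heavy polysomes against monosomes in LPS ranged from 30 to 38 with a gradient left out, that of 28 in LPS+ET from 22 to 32 and that of 29 in LPS+ET+KU from 25 to 27. The count of 35 for heavy against light polysomes ranged from 29 to 36. The count of 8 for light polysomes against monosomes was 23 with equal weight per fraction, 14 at an adjusted p under 0.05 and 4 to 5 with a gradient left out. For the change of the heavy to monosome ratio, the count of 5 between LPS+ET and LPS was 2 without an expression filter, 3 with equal weight per fraction, 8 at an adjusted p under 0.05 and 1 to 3 with a gradient left out, and the count of 0 between LPS+ET+KU and LPS+ET was 2 at an adjusted p under 0.05 and 0 to 1 with a gradient left out. For the profiles over 13 fractions, the counts of 5 and 9 were 11 and 5 with the study's formula, which has no term for the gradient and so no block, and 1 to 7 and 2 to 12 with a gradient left out. Comparisons of classes and profiles hold each gradient, and with it each pool, as a term.

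Of 616 values of named genes under an alternative, 474 kept their direction and their side of the threshold, 125 kept the direction and lost the call, 10 kept it and gained one and 7 changed direction. The changes of direction were those of Psme1 between LPS+ET+KU and LPS+ET (0.0748 without LPS+ET gradient LUL15 and 0.0074 without LPS+ET+KU gradient LUL17, over a range of -0.14 to 0.0748 with a gradient left out), of Psme2 in the same comparison (-0.0036 without LPS+ET gradient LUL16 and -0.28 without LPS+ET+KU gradient LUL17, over a range of -0.28 to 0.51 with a gradient left out), of Psme2 between LPS+ET+KU and LPS (-0.97 with equal weight per fraction and -0.0224 without LPS+ET+KU gradient LUL17, over a range of -0.0224 to 1.26 with a gradient left out) and of Psmc6 between light polysomes and monosomes (0.0834 with equal weight per fraction). The pool block changed no named call beyond those given in the text. The cause of these changes was not tested, beside the fewer gradients of some fits and the other limit of the looser threshold. Psme2 had 122 counts and an SE of 0.7 or more, so that a log2 difference of 1 was not detectable at this depth. Psma8, Psmb7 and Psmb11 had too few counts for any test.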
